A study of Mus musculus with 6 samples.

Results

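A set of 6 transcription factors tied to neuron identity in the arcuate nucleus were followed here: Bsx, Tbx3, Hmx2, Hmx3, Prdm12 and Prox1. They were taken by gene symbol, and all 6 had a row among the 32531 gene rows of the count tables. The libraries come from the hypothalamus of adult, untreated control mice of the line Lhx5-TRAP DT154, in which Lhx5, a LIM-homeodomain gene, drives an EGFP-tagged ribosomal protein (EGFP-Rpl10a). Every animal used carried this transgene, so no library comes from mice without it. Translating ribosome affinity purification (TRAP) with antibodies to EGFP gave 3 libraries of immunopurified RNA (IP), set here against 3 libraries that the labels describe as unbound and whose titles call them input. The tagged RNA comes from cells where the Lhx5 transgene is active, which need not be arcuate cells. The sources used here give no sex, exact age or pooling of the animals. Nothing in the labels says that the libraries of a group came from separate animals, so the p-values measure the spread between these libraries, which may in part be technical.

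The arcuate nucleus lies at the base of the hypothalamus beside the third ventricle and holds neurons that sense hormones and nutrients from the blood. Its feeding neurons are of opposed kinds, those that make Agrp and Npy and drive eating, and those that make Pomc and restrain it, while others make Ghrh, dopamine, or kisspeptin with neurokinin B. Sets of homeodomain, T-box and zinc finger proteins fix which of these peptides a neuron makes. In mice, Bsx is needed for normal Npy and Agrp expression, Hmx2 and Hmx3 for Ghrh neurons, and Tbx3 and Prdm12 for Pomc neurons. Prox1, a relative of the fly gene prospero, is best known from lymphatic vessels and from granule neurons of the dentate gyrus.

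The libraries held 32471045 to 46293837 reads in genes for IP and 32926146 to 40768577 for unbound RNA. One library stood apart. In unbound replicate 3 the 12 genes listed as defining hypothalamus summed to 11.5 CPM (read counts scaled to library size, with TMM factors), against 197 and 116 CPM in unbound replicates 1 and 2, while 12 midbrain and hindbrain genes summed to 151 CPM there, against 7.02 and 2.18 CPM. Avp, Oxt, Hcrt and Pmch, which mark hypothalamic peptide neurons, were each at or below 0.144 CPM in that library. Some others of the list differed less. Agrp stood at 0.456 CPM there against 0.802 and 0.552 CPM in unbound replicates 1 and 2, and Pomc at 2.69 against 6.04 and 4.53 CPM. Hdc, at 2.93 CPM, lay between their 4.86 and 2.15 CPM. By the sums of both lists IP replicate 3 did not share this shift, with 213 CPM for the hypothalamus genes and 5.67 CPM for the midbrain and hindbrain genes. Avp, Oxt, Hcrt and Pmch were nevertheless each lowest in IP there, at 0.778, 3.89, 0.778 and 6.2 CPM. In IP replicates 1 and 2 Avp stood at 5.25 and 6.53 CPM, and Pmch at 20 and 8.26 CPM. Unbound replicate 3 was also low in 7 striatal genes, with 101 CPM against 1749 and 1334 CPM in unbound replicates 1 and 2. The 6 choroid plexus genes summed to 73.6 CPM there, against 2064 and 2255 CPM. IP replicate 3 was likewise the lowest in IP, at 182 and 64.4 CPM. The factors tested and the gene lists beside them are therefore also given without unbound replicate 3. Such fits keep the unbound libraries with high striatal and choroid plexus sums, and the part of such tissue in their falls was not tested. The 20 pan-neuronal genes summed to 24495 to 25907 CPM in IP and 16552 to 17894 CPM in unbound RNA. Snap25 alone held 11385 to 12787 CPM of this in IP and 7478 to 8945 CPM in unbound RNA. By edgeR's test (adjusted p under 0.05) 13 of the 20 were higher in IP and 1, Map2, was lower (-0.66). The shares over all genes tested were 21.1% and 23.2%.

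Of the 6 factors, Bsx and Tbx3 were higher in IP, Prox1 was lower, Prdm12 did not pass the test, and Hmx2 and Hmx3 had too few reads to enter it. Bsx was 11-fold and Tbx3 3.21-fold higher in IP, and Prox1 was 5.74-fold lower. Across all 16991 genes tested, 21.1% were called higher and 23.2% lower in IP (edgeR's quasi-likelihood test, adjusted p under 0.05), so 2 rises and 1 fall among the 4 factors tested stand in a comparison where 44.3% of all genes passed. The balance of these calls depended on the scaling: TMM gave 3586 genes higher and 3943 lower, and scaling on pan-neuronal genes 625 and 7965. The median log2 fold change was 0.13 over these 4 and -0.01 over all genes tested. For Bsx and Tbx3 the lowest IP library was above the highest unbound one, as for 27.1% of genes tested, and for Prox1 the order was the opposite, as for 28.7%. Without unbound replicate 3, Bsx (2.86) and Tbx3 (1.30) still passed as higher, and Prox1 (-2.60) and also Prdm12 (-1.84) as lower.

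**Figure D1:**
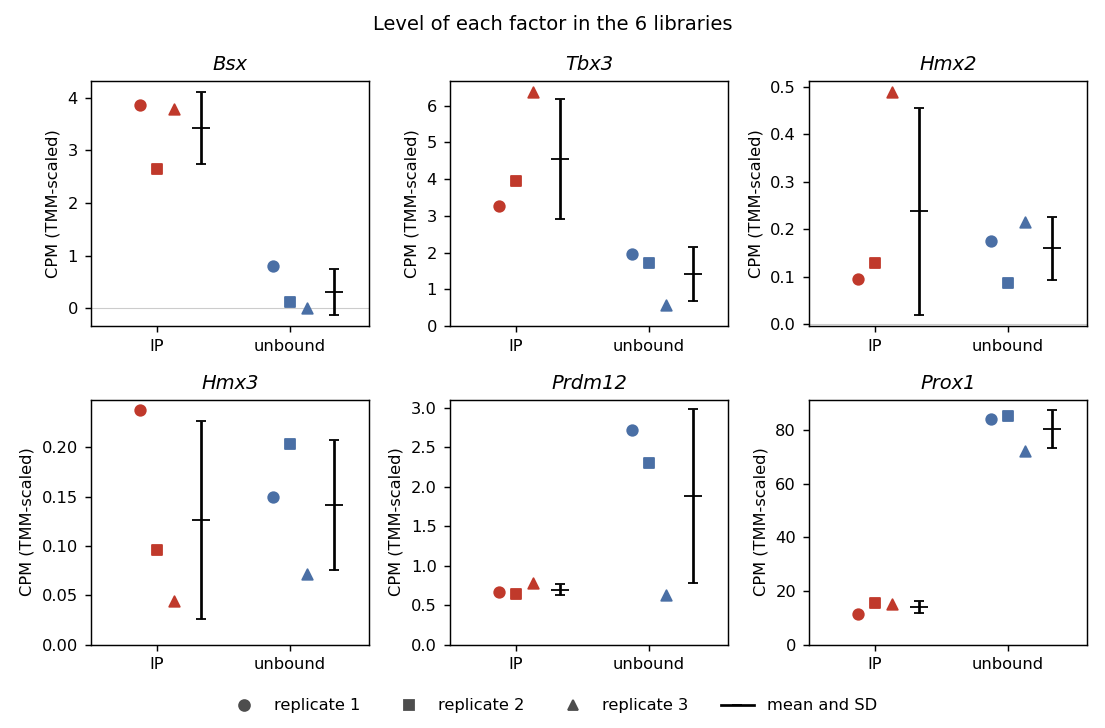
Level of each factor in CPM (vertical axes, linear, each with its own range) in the IP libraries (left, red) and the unbound libraries (right, blue); marker shapes give the replicate number and bars the mean and SD (n = 3 each). All IP points lie above all unbound points for Bsx and Tbx3 and below them for Prox1, and unbound replicate 3 is the lowest unbound library for Bsx, Tbx3, Hmx3, Prdm12 and Prox1.

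The members of this set lie on 5 chromosomes, and the start regions of the ones that rose most and fell most are shown for context. Each window runs from 250 bases before to 50 after a RefSeq start (GRCm38.p6), and 5 of the 6 factors had one. The Bsx window lies on the plus strand at chr9:40873877-40874176. The first of 2 Prox1 windows lies on the minus strand at chr1:190170778-190171077, inside the annotated antisense gene Prox1os. Capitals mark the CCAAT box (CCAAT, or ATTGG on the other strand) and the E-box (CANNTG, the same on both strands), and no 2 of the marked matches overlap.
Bsx: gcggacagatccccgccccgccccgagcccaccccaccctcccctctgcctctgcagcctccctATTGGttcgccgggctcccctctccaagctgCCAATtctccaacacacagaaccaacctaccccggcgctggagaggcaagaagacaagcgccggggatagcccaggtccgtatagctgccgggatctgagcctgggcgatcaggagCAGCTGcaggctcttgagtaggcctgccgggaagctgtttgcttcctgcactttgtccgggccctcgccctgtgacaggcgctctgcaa
Prox1: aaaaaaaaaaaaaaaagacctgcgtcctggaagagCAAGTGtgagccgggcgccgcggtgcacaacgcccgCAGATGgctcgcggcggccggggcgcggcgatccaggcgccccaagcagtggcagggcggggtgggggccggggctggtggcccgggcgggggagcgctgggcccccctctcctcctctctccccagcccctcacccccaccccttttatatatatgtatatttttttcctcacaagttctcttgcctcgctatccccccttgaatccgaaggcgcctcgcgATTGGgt
The Bsx window held 2 CCAAT boxes and 1 E-box, and this Prox1 window 1 CCAAT box and 2 E-boxes. A second RefSeq start gives Prox1 another window, at chr1:190169466-190169765, which held neither box and was 57.3% G or C. Over 32851 such windows of 300 bases, 37.4% held a CCAAT box and 72.3% an E-box. The homeodomain core TAAT, which 58.0% of windows hold on either strand, was found in none of these 3 windows, and G or C made up 65.3% of the Bsx window and 64.3% of the first Prox1 window, against a median of 52.7% over all windows.

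Bsx (ENSMUSG00000054360.4), a homeobox gene of feeding neurons that make Npy and Agrp, is at positions 40874127 to 40880057 of chromosome 9, plus strand (mm10, GENCODE M21), with 3 exon blocks of 2960 bases in all and no other annotated gene overlapping it. It had 162, 82 and 170 reads in IP replicates 1 to 3, against 32, 4 and 0 reads in unbound replicates 1 to 3. That is 3.85, 2.64 and 3.78 CPM in IP and 0.802, 0.116 and 0 CPM in unbound RNA. The IP libraries were close to each other and the unbound ones were spread, with nearly all unbound reads in replicate 1. A count of 0 in unbound replicate 3 allows a level of up to 0.072 CPM (3 reads, counting error only). The log2 fold change was 3.46 ± 1.003 (SE, with an adjusted p of 0.0243 in edgeR), and 99.8% of genes tested had a lower one. Libraries of the same replicate number gave ratios of 4.8 for number 1, 22.7 for number 2 and at least 52.5 for number 3.

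The size of the Bsx difference depended on the unbound libraries. Without unbound replicate 1 the log2 fold change was 5.93 (adjusted p = 0.0029), and with replicate 3 of that group left out 2.86 (adjusted p = 0.00501). The call was lost without IP replicate 1 (3.38, adjusted p = 0.0697), IP replicate 3 (3.40, adjusted p = 0.0753) or unbound replicate 2 (3.10, adjusted p = 0.0814), all by edgeR's test.

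Tbx3 (ENSMUSG00000018604.18), a T-box factor of Pomc and Agrp neurons that tanycytes of the third ventricle also express, is at positions 119670669 to 119684724 of chromosome 5, plus strand. It had 3.28, 3.95 and 6.38 CPM in IP replicates 1 to 3, against 1.96, 1.72 and 0.576 CPM in unbound replicates 1 to 3. The groups did not overlap, and IP replicate 3 was the highest of all while unbound replicate 3 was the lowest. The log2 fold change was 1.68 ± 0.48 (SE, with an adjusted p of 0.0198 in edgeR). Same-numbered libraries gave ratios of 1.68, 2.31 and 11.1, so the third pair carried much of the size. Without both libraries of that pair the log2 fold change was 0.96 (adjusted p = 0.0372), without unbound replicate 3 alone 1.30 (adjusted p = 0.0153), and without IP replicate 3 the call was lost (1.36, adjusted p = 0.0768).

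Another scaling moved Tbx3 and Bsx alike. When libraries were scaled on the 20 pan-neuronal genes, which lowers the median of all genes to -0.62, Tbx3 was at 1.06 and did not pass (adjusted p = 0.102, edgeR), while Bsx was at 2.84 and passed (adjusted p = 0.047). Of 9 tanycyte genes tested, 5 fell in IP, against 23.2% of all genes tested, and the other 4 did not pass. Once unbound replicate 3 was left out, 7 of 10 fell and 1 rose. The rise was Gpr50, an orphan receptor, at 7.53, 5.85 and 4.82 CPM in IP against 2.41, 2.03 and 0.192 CPM in unbound RNA. Its groups did not overlap, and it missed the threshold with all libraries (log2 1.98, adjusted p = 0.053, edgeR) but passed without that library (1.44, adjusted p = 0.00329) and in the fit blocked on replicate number (2.35, adjusted p = 0.0251). All 10 listed summed to 29.7 to 54.9 CPM in IP against 124 to 231 CPM in unbound RNA. Dio2, the highest of them, stood at 3.71, 5.91 and 3.85 CPM in IP against 54.5, 68.6 and 59.8 CPM in unbound RNA. Rax, a defining tanycyte factor, had reads in only 1 IP library (0.161 CPM). The part of tanycyte RNA in the Tbx3 level was not tested. An antisense gene, Tbx3os1, shares 115 exon bases with Tbx3 and was not matched to a row, and the strand setting of the counting is not given, so reads there cannot be told apart. Tbx3os2, which lies just beyond the end of Tbx3 on the other strand, had 8, 5 and 31 reads in IP against 4, 10 and 0 in unbound RNA, also highest in IP replicate 3 and lowest in unbound replicate 3.

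Hmx2 and Hmx3, paired homeobox genes of the Nkx5 kind that act in Ghrh neurons and in the inner ear, lie 3847 bases apart on the plus strand of chromosome 7 (Hmx3 from 131542867 to 131544925, Hmx2 from 131548773 to 131558014). Both are within the outer limits annotated for Fgfr2 on the other strand, with which they share no exon. Hmx2 had 4, 4 and 22 reads in IP, against 7, 3 and 9 in unbound RNA. Hmx3 had 10, 3 and 2 reads in IP, against 6, 7 and 3 in unbound RNA. Groups overlapped for both, and the high libraries were not the same ones: IP replicate 3 was highest for Hmx2 and lowest for Hmx3. With no low-count filter the log2 fold changes were 0.64 (95% interval -1.20 to 2.47) for Hmx2 and -0.12 (-2.21 to 1.97) for Hmx3, with adjusted p-values of 0.609 and 0.942 in edgeR's test. Both intervals hold the size of the Tbx3 difference, so a difference of that size is not excluded for either gene.

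Prdm12 (ENSMUSG00000079466.2), a zinc finger factor needed for the onset of Pomc expression in mice and also active in pain-sensing neurons, is at positions 31640037 to 31655795 of chromosome 2, plus strand. It had 28, 20 and 35 reads in IP and 108, 79 and 26 in unbound RNA, or 0.665, 0.643 and 0.778 CPM in IP against 2.71, 2.3 and 0.624 CPM in unbound RNA. The IP libraries were within 1.21-fold of each other, and unbound replicate 3 lay at their level while the other unbound libraries were well above. The log2 fold change was -1.42 ± 0.56 (SE) and missed the threshold (adjusted p = 0.0679, edgeR). Without unbound replicate 3 it passed as lower, at -1.84 (adjusted p = 0.00483), and it passed with DESeq2 (-1.47, adjusted p = 0.0351) and under pan-neuronal scaling (-2.04, adjusted p = 0.0179). The antisense gene Gm13425 shares 200 exon bases with Prdm12 and was not matched to a row.

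**Figure D2:**
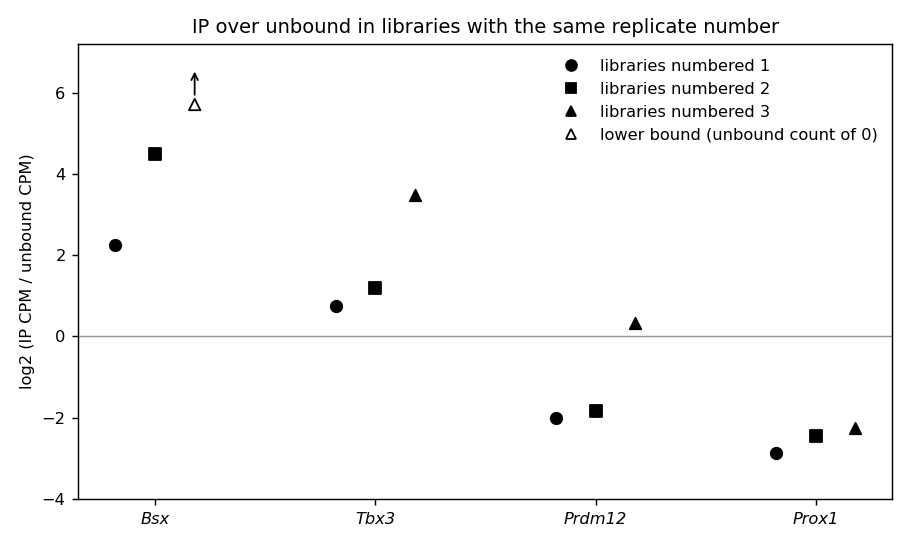
Log2 ratio of CPM in IP over CPM in unbound RNA (vertical axis) for the 4 tested factors, one point per replicate number; the open triangle with an arrow is a lower bound, since Bsx had no read in unbound replicate 3. Points for Bsx and Tbx3 are all above 0, those for Prox1 all below, and Prdm12 lies at -2.02, -1.84 and 0.32.

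Prox1 (ENSMUSG00000010175.13), the prospero-related homeobox gene, is at positions 190118035 to 190170714 of chromosome 1, minus strand, in 6 exon blocks of 8390 bases in all. It had 11.5, 15.6 and 15.1 CPM in IP replicates 1 to 3, against 84.1, 85.3 and 72.4 CPM in unbound replicates 1 to 3. Each group was tight and the gap between them wide, also in the unbound library poor in hypothalamus genes. The log2 fold change was -2.52 ± 0.17 (SE, with an adjusted p of 5.0e-05 in edgeR), and 9.23% of genes tested had a lower one. Same-numbered libraries gave log2 ratios of -2.87, -2.45 and -2.26. Prox1 kept its call in each of the 17 alternatives run. The antisense gene Prox1os shares 133 exon bases with it and was not matched to a row.

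Several cell types other than Lhx5 neurons can express Prox1, and many of their genes were lower in IP too, as were 23.2% of all genes tested. The 10 oligodendrocyte lineage genes all fell and summed to 177 to 254 CPM in IP against 1482 to 2873 CPM in unbound RNA. Within the unbound group the sum was highest in replicate 3, where Prox1 was lowest. Of 7 vascular genes tested 5 fell, and Lyve1, a lymphatic endothelial gene, had no read in IP and 0.577, 0.32 and 0.672 CPM in unbound RNA. Flt4, a receptor of lymphatic endothelium, lay the other way, at 5.63, 1.58 and 4.56 CPM in IP against 1.28, 0.494 and 2.66 CPM in unbound RNA. It did not pass with all libraries (1.40, adjusted p = 0.107, edgeR) but passed as higher without unbound replicate 3 (2.14, adjusted p = 0.0157) and in the fit blocked on replicate number (1.51, adjusted p = 0.0196). Of 8 thalamic genes 5 fell and Calb2 rose, while Tcf7l2, the highest, did not pass (333, 448 and 256 CPM in IP against 171, 149 and 430 CPM in unbound RNA) but passed as higher without unbound replicate 3 (1.10, adjusted p = 0.00222). Of 3 dentate granule genes tested C1ql2 fell (1.35, 1.64 and 1.62 CPM in IP against 3.66, 4.19 and 6.05 CPM in unbound RNA). Without unbound replicate 3 the falls and rises were 10 and 0 for the oligodendrocyte lineage, 4 and 1 for vascular, 6 and 2 for thalamic and 3 and 0 for dentate granule genes. The part of these cells in the Prox1 result was not tested. IP and unbound RNA are fractions from the same kind of tissue. A lower level in IP therefore measures neither the number of cells of a type nor their RNA per cell, which bulk libraries cannot tell apart.

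Set on one scale per exon length (CPM per kilobase, exon lengths from GENCODE M21), the order of levels differed between the fractions. In IP it ran Prox1 (1.67 ± 0.266), Bsx (1.16 ± 0.23), Tbx3 (0.685 ± 0.246), Prdm12 (0.281 ± 0.0293), Hmx3 (0.0866 ± 0.0686) and Hmx2 (0.0739 ± 0.0679; mean ± SD, n = 3 each). The ranges of Bsx and Tbx3 overlapped, and so did those of Hmx3 and Hmx2, while the other neighbours were apart. In unbound RNA the order was Prox1 (9.6 ± 0.845), Prdm12 (0.759 ± 0.447), Tbx3 (0.214 ± 0.111), Bsx (0.103 ± 0.146), Hmx3 (0.0974 ± 0.0454) and Hmx2 (0.0496 ± 0.0205). There only Prox1 stood clear of its neighbour in the order. Bsx thus lay above Tbx3 and Prdm12 in IP and below both in unbound RNA, as a description of levels.

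**Figure D3:**
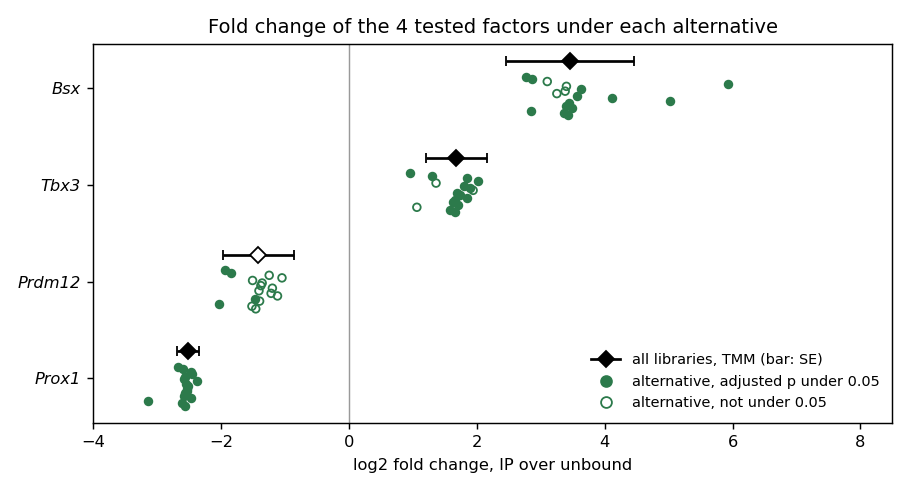
Log2 fold change of the 4 tested factors, IP over unbound (horizontal axis): diamonds with SE bars are the values with all libraries and TMM scaling, circles the alternatives, filled where the adjusted p was under 0.05. Prox1 passed in each, Bsx and Tbx3 stayed above 0 and missed the threshold in 4 and 3 of 17, and Prdm12 stayed below 0 and passed in 4 of 16.

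The peptide and transmitter genes that mark arcuate neurons mostly did not pass the test. Of 11 such genes tested, Th fell and 10 did not pass, with a median log2 fold change of -0.17. Over all genes tested 44.3% passed, 23.2% as lower. Agrp, the peptide of neurons that need Bsx, stood at 0.404, 0.611 and 0.6 CPM in IP against 0.802, 0.552 and 0.456 CPM in unbound RNA. Pomc stood at 3.66, 2.44 and 3.47 CPM in IP against 6.04, 4.53 and 2.69 CPM in unbound RNA. The groups overlapped for both, with log2 fold changes of -0.17 (adjusted p = 0.808) and -0.47 (adjusted p = 0.298, edgeR), and without unbound replicate 3 of -0.34 and -0.73, which did not pass either. Without that library the list had 1 rise, Tac2, and 3 falls, Th, Npy and Pdyn, the last at -1.26 (adjusted p = 9.0e-04). Under pan-neuronal scaling, where 7965 of all genes passed as lower, the list had 0 rises and 4 falls. These were Pomc (-1.08, adjusted p = 0.0366), Npy (-2.32, adjusted p = 0.0295), Slc6a3 (-5.44, adjusted p = 0.0387) and Th (-4.07, adjusted p = 0.00971, edgeR). Agrp did not pass there either (-0.78).

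Npy stood at 13.2, 7.33 and 9.76 CPM in IP against 48.7, 42.9 and 7.15 CPM in unbound RNA, and passed as lower without unbound replicate 3 (-2.18, adjusted p = 1.0e-04). Ghrh, the peptide of neurons that need Hmx2 and Hmx3, stood at 3.45, 4.47 and 2.18 CPM in IP against 1.8, 2.67 and 0.6 CPM in unbound RNA, and passed only in the fit blocked on replicate number (1.15, adjusted p = 0.0393). Tac2, which encodes neurokinin B, had groups that did not overlap, at 72.3, 63.6 and 81.8 CPM in IP against 22.6, 16.6 and 1.49 CPM in unbound RNA. With all libraries Tac2 did not pass in edgeR's test (2.42, adjusted p = 0.0713) or under pan-neuronal scaling (1.80, adjusted p = 0.119, edgeR). It passed with DESeq2 (2.38, adjusted p = 0.0298), with limma-voom (3.19, adjusted p = 0.0439) and without unbound replicate 3 (1.89, adjusted p = 7.7e-05, edgeR).

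Th, the rate-limiting enzyme of dopamine synthesis, stood at 1.9, 2.54 and 1.24 CPM in IP against 8.9, 5.38 and 48.5 CPM in unbound RNA, and its log2 fold change was -3.48 (adjusted p = 0.0252, edgeR). The library rich in midbrain genes held its highest level, and without it the value was -1.93 (adjusted p = 0.00174). The call was lost in the fit blocked on replicate number (-2.80, adjusted p = 0.0757), with limma-voom (-2.95, adjusted p = 0.123), with no low-count filter (-3.39, adjusted p = 0.0655) and without IP replicate 1 (-3.47), 2 (-3.72) or 3 (-3.17). Among the highest genes of the list, Sst and Cartpt stood at 170 ± 63.7 and 51.7 ± 18.4 CPM in IP against 125 ± 59.5 and 41.3 ± 18.7 CPM in unbound RNA (n = 3 each), and neither passed with all libraries, though Sst passed in the fit blocked on replicate number (0.51, adjusted p = 0.0156) and without the third pair (0.37, adjusted p = 0.0321).

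Other transcription factors of arcuate development went both ways. Of 13 tested, Otp, Nhlh2 and Nkx2-1 rose, Foxo1 fell and 9 did not pass, with a median of -1.37. The shares over all genes tested were 21.1% higher and 23.2% lower. Nhlh2, a basic helix-loop-helix factor of Pomc neurons, stood at 59.1, 50.8 and 60.3 CPM in IP against 7.85, 4.27 and 7.87 CPM in unbound RNA, an 8.5-fold difference (log2 3.09 ± 0.24, SE; adjusted p = 1.0e-04, edgeR). Otp, a homeobox factor of peptide neurons including those that make Agrp, was 12.4-fold higher at 10.1, 11.4 and 8.38 CPM in IP against 1.23, 0.64 and 0.528 CPM in unbound RNA. Without unbound replicate 3 the log2 fold changes were 3.22 for Nhlh2 and 3.39 for Otp, and both passed.

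Nkx2-1, the homeobox gene that patterns the ventral hypothalamus, stood at 62.2, 38.5 and 93.5 CPM in IP against 14.7, 10.1 and 2.09 CPM in unbound RNA (log2 2.86, adjusted p = 0.0229, edgeR). Its call was lost without IP replicate 3 (2.50, adjusted p = 0.0792), without unbound replicate 2 (2.95, adjusted p = 0.0799), in the fit blocked on replicate number (2.997, adjusted p = 0.0543), with no low-count filter (2.89) and in lane 2 alone (3.22), and held without unbound replicate 3 (2.39, adjusted p = 6.0e-04). Foxo1, which insulin and leptin signalling restrain, stood at 27.2, 34.9 and 25.7 CPM in IP against 125, 112 and 36.1 CPM in unbound RNA (-1.64, adjusted p = 0.0212). Its call was lost without IP replicate 1 (-1.58) or 3 (-1.55), without unbound replicate 1 (-1.33) or 2 (-1.46), with no low-count filter (-1.62), with limma-voom (-1.47) and in lane 2 alone (-1.61), and held without unbound replicate 3 (-2.03).

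The GABAergic factors Dlx1, Dlx2, Dlx5 and Dlx6 and the Pomc and Ghrh neuron factor Isl1 did not pass with all libraries, at -1.88 to -1.37. In unbound replicate 3 each was at or below 0.768 CPM, and without that library all 5 passed as lower, at -2.44 to -1.92. That fit rests on the unbound libraries rich in striatal genes (1749 and 1334 CPM). The part of striatal RNA in these falls was not tested. The list then had 4 rises and 8 falls among 15 tested, with Sox14 passing as higher (2.34). The highest of the genes that did not pass was Stat3, the factor downstream of the leptin receptor, at 27, 28.4 and 34.5 CPM in IP against 32.8, 34.3 and 36.4 CPM in unbound RNA. Under pan-neuronal scaling it passed as lower, at -0.81 (adjusted p = 0.00162). Neurog3 had no read in any library.

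**Figure D4:**
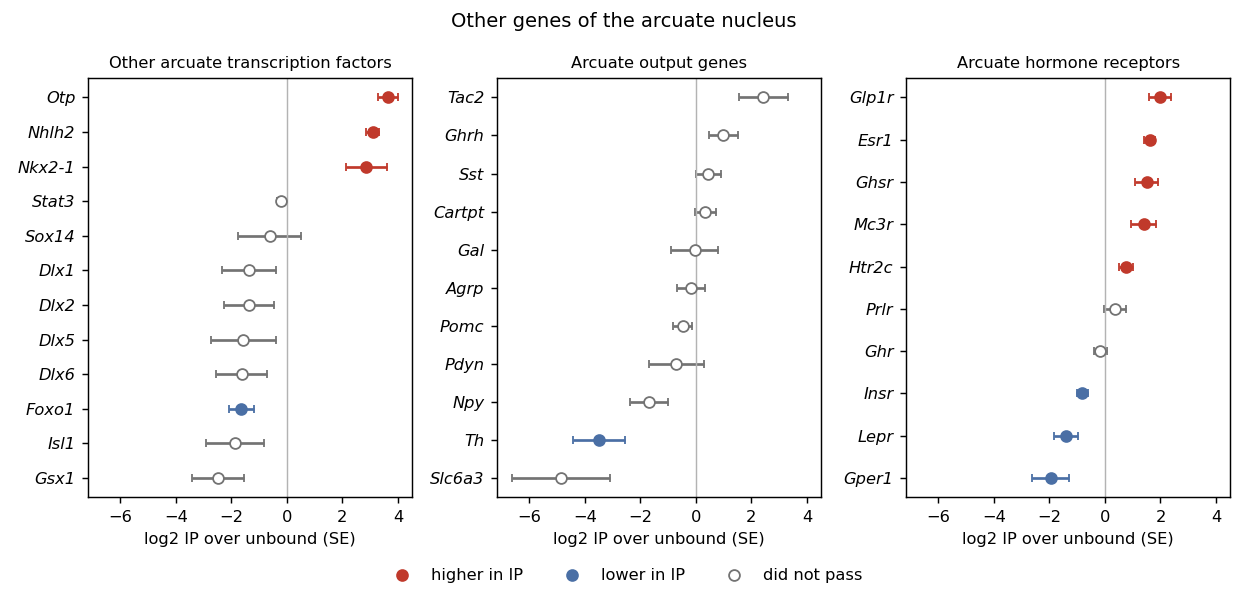
Log2 fold change, IP over unbound, with SE (horizontal axes) of tested genes in 3 lists (1 factor that did not pass is not drawn): other arcuate transcription factors (left), arcuate output genes (middle) and arcuate hormone receptors (right); red circles passed as higher in IP, blue as lower, and open circles did not pass. The factors show 3 rises and 1 fall, the output genes 1 fall, and the receptors 5 rises and 3 falls.

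Receptors through which arcuate neurons sense hormones and peptides were split, with 5 of 10 rising and 3 falling, and a median of 0.55. Over all genes tested 21.1% rose and 23.2% fell. Esr1, the estrogen receptor alpha, stood at 11.4, 12.1 and 11.3 CPM in IP against 4.36, 3.58 and 3.36 CPM in unbound RNA, a 3.07-fold rise (log2 1.62 ± 0.20, SE; adjusted p = 5.0e-04, edgeR). Ghsr, the ghrelin receptor, was 2.82-fold higher (4.94, 5.37 and 5.22 CPM in IP against 1.68, 0.872 and 2.93 CPM in unbound RNA), and Glp1r was 3.95-fold higher. These 3 calls held in every fit that left out 1 library, with 1.54 for Esr1, 2.01 for Ghsr and 1.74 for Glp1r without unbound replicate 3. Lane 2 alone did not pass Ghsr (1.15) or Glp1r (1.72), nor did pan-neuronal scaling pass Ghsr (0.89).

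Mc3r (1.39), a melanocortin receptor of Agrp neurons, and Htr2c (0.75), a serotonin receptor of Pomc neurons, also passed as higher. Mc3r lost its call without any one IP library (1.28 to 1.49) or unbound replicate 2 (1.34), and stood at 1.98 without unbound replicate 1. It also lost it with library size alone (1.29), pan-neuronal scaling (0.77), lane as a covariate (1.38) and lane 2 alone (1.22). Htr2c lost it without IP replicate 1 (0.59) or 2 (0.64) or unbound replicate 2 (0.66), with library size alone (0.65), pan-neuronal scaling (0.14), at least 50 reads in 3 libraries (0.69), limma-voom (0.70), lane as a covariate (0.74) and lane 2 alone (0.54). Insr, Lepr and Gper1 passed as lower, at -0.81, -1.39 and -1.95. Lepr, the leptin receptor, stood at 1.57, 1.29 and 1.02 CPM in IP against 3.33, 1.8 and 4.99 CPM in unbound RNA. It lost its call in the fit blocked on replicate number (-1.29, adjusted p = 0.0518, edgeR) and without the third pair (-0.86, adjusted p = 0.125). Of the 6 fits that left out 1 library, 5 lost the Lepr call (-1.54 to -0.996). The exception was the fit without unbound replicate 2 (-1.68). Gper1 lost its call without IP replicate 1 (-1.74) or 3 (-1.62), without unbound replicate 2 (-1.71) or 3 (-1.84) and without the third pair (-1.55). The same held with no low-count filter (-1.90) and in lane 2 alone (-2.34). Without IP replicate 2 Gper1 stood at -2.55. Without unbound replicate 3 the list had 5 rises and 1 fall, Insr (-0.86). Under pan-neuronal scaling the list had 2 rises, Esr1 and Glp1r, and 4 falls, with Ghr passing as lower (-0.77, adjusted p = 0.0379). Prlr, the prolactin receptor, and Ghr, the growth hormone receptor, did not pass with TMM scaling, at 40.9 ± 5.88 and 12.7 ± 2.4 CPM in IP against 32 ± 16.2 and 14.2 ± 4.05 CPM in unbound RNA (SD, n = 3 each).

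Close relatives were listed for the Hmx, Tbx and Prox factors only, not for Bsx or Prdm12. Apart from Prox2, those listed were near the limit of detection. Hmx1, Tbx2, Tbx4 and Tbx5 had mean levels of 0.0186 to 0.0442 CPM in IP and 0 to 0.243 CPM in unbound RNA, and none entered the test. Prox2 stood at 0.143, 0.739 and 0.556 CPM in IP against 1, 1.34 and 1.56 CPM in unbound RNA. Its groups did not overlap, but it did not pass in edgeR's test with TMM scaling (-1.45, adjusted p = 0.0842) or without unbound replicate 3 (-1.31). It passed as lower with DESeq2 (-1.48, adjusted p = 0.0499), limma-voom (-1.72, adjusted p = 0.0435) and pan-neuronal scaling (-2.07, adjusted p = 0.0203, edgeR).

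Among 10568 other tested genes with a mean of at least 5 CPM, those whose log2 CPM tracked a factor best over the 6 libraries were Gspt2, Lypd1 and Dxo for Bsx, Cish, Cul4a and Actl6b for Tbx3, Srr, Pmepa1 and Mras for Prdm12, and Nfat5, Sptbn1 and Fam76b for Prox1. Pearson's r was 0.9929 to 0.9992 over these 12, as expression levels that share the same libraries and the same split into IP and unbound. Such likeness is one of shape, not of size. Gspt2 had a log2 fold change of 0.63 against 3.46 for Bsx, Cish 0.81 against 1.68 for Tbx3, and Nfat5 -0.99 against -2.52 for Prox1. Srr stood at 72.8, 70.6 and 75.6 CPM in IP against 123, 123 and 70.8 CPM in unbound RNA, with the same low level in unbound replicate 3 as Prdm12.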

How the data were processed

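RNA-seq libraries of IP and unbound RNA (3 each) were used as deposited: raw read counts per gene, which the authors made by alignment to mm10 with STAR 2.0.0e and counting with HTSeq, per the submitters' processing notes. No source used here names the annotation, the strand setting or the treatment of overlapping genes. Entries that name no gene (52.29% to 54.98% of all reads, mostly reads aligned to several places) were left out of library sizes and tests. Their make-up differed between the groups. Reads aligned to several places were 43.8% to 45.0% in IP and 31.8% to 32.9% in unbound RNA. Reads in no feature were 7.6% to 8.0% against 12.5% to 13.5%, and ambiguous reads 1.58% to 1.64% against 7.1% to 9.0%. The effect on single genes was not tested. The sample type in the labels set the groups.

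The test was the robust quasi-likelihood test of edgeR 4.0.16 (R 4.3.3) with group as the only term, after TMM scaling and filterByExpr (minimum count 10, minimum total 15). P-values were adjusted by Benjamini-Hochberg over 16991 genes and called at 0.05; the test was also tried on simulated data. An SE is the log2 fold change over the square root of F, and 95% intervals are normal. CPM use TMM-scaled library sizes. Lists are described by counts and medians, with no set test. A gene of the list of other arcuate factors is in its counts and median but is not reported here by name or drawn. Replicates of a group differed by more than counting noise (chi-square per degree of freedom 23.0 to 136).

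The 6 factors, the gene lists and the alternatives were chosen with earlier results of these data known. Named genes are the 6 factors, overlapping genes, every list gene that passed with up to 4 of the highest others, and for each tested factor the 3 genes of highest Pearson r (log2 CPM, prior count 2, mean of at least 5 CPM, predicted symbols left out); Ghrh, Agrp, Isl1, the Dlx genes, Sox14, Tac2, Gpr50, Flt4, Pdyn and some marker genes were chosen after their values were seen.

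Replicate numbers are shared between the groups. Deviations from the group mean, taken over all tested genes, correlated between an IP library and the unbound library of its number at 0.14, 0.16 and 0.21. All were over 0.1 but weak, and deviations within a group are tied to each other, so these values are not independent. By this check, and not by a label, the numbers were taken as pairs for the ratios, the replicate block and the fit without the third pair. The main test did not use them. Lane 4 holds replicate 2 and lane 2 the rest. Alternatives were other scalings, count filters, DESeq2 1.42.0, limma-voom (limma 3.58.1), the replicate block, lane, and libraries left out.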

Additional observations from a re-analysis of the deposited data

How the results depend on the processing

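Prox1 kept its direction and its call in all 17 alternatives (-3.14 to -2.38). With the replicate number as a block, Bsx was at 4.12 (adjusted p = 0.0217), Tbx3 at 1.74 (adjusted p = 0.0489), Prdm12 at -1.22 (adjusted p = 0.147) and Prox1 at -2.53 (adjusted p = 4.95e-04), and no call of a factor changed. Leaving out 1 library at a time gave 2.86 to 5.93 for Bsx, 1.30 to 2.01 for Tbx3, -1.84 to -1.05 for Prdm12 and -2.60 to -2.38 for Prox1. Those fits called 0 to 2 factors higher (2 at an unadjusted p under 0.05 in the fit of 0, edgeR without IP replicate 3) and 1 to 2 lower, and 2489 to 4139 genes higher and 3263 to 4448 lower.

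Pan-neuronal scaling called 625 genes higher and 7965 lower, against 3586 and 3943 with TMM, and 1 factor higher and 2 lower, with Tbx3 at 1.06 and Prdm12 at -2.04. DESeq2 called 2 factors lower, with Prdm12 at -1.47. Without the third pair 2 factors were lower, with Prdm12 at -1.94. Lane 2 alone, with 2 libraries a group, called 1297 genes higher and 2538 lower and 0 factors higher (2 at an unadjusted p under 0.05, edgeR), with Bsx at 3.25 (adjusted p = 0.128), Tbx3 at 1.94 (adjusted p = 0.0852) and Prox1 at -2.55 (adjusted p = 0.00339); it has fewer libraries, and lane 4 holds 1 a group and gives no test. With at least 50 reads in 3 libraries Prdm12 was left out. Hmx2 and Hmx3 entered only the fit with no low-count filter, so no alternative gave a second value. The cause of the other changes was not tested. Low counts limit Hmx2 and Hmx3, at 2 to 22 reads a library.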
